A study of Mus musculus with 8 samples.

Results

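Lipoprotein lipase (Lpl) and 5 genes that fold, anchor, inhibit or act beside it (Lmf1, Gpihbp1, Angptl4, Angptl8 and Vldlr) were followed through the stromal vascular fraction of inguinal white fat. They are 6 of the 32285 genes in the count tables and were taken by their symbols. Single-cell 3′ libraries were made from collagenase-digested fat of C57BL/6 mice (C57BL/6J in the study's text) that either ate ad libitum (Ad-Lib, 4 libraries numbered 1, 3, 5 and 7) or were given food only in timed windows of the night (TAN, 4 libraries numbered 2, 4, 6 and 8). The labels give an age of 8 weeks for every library, whereas the study describes older male mice kept on the regimen for months, so the age is uncertain. The labels give no hour of tissue collection. The study's general methods place euthanasia in the dark phase, a few hours after the first feeding window, without saying whether this held for the single-cell libraries. The labels name no transgene and no drug for either group. The labels count each library as a sample of its own, and where they do not name the animal, p-values measure only the spread between these libraries.

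LPL is the enzyme that splits triglyceride out of chylomicrons and very-low-density lipoproteins at the capillary wall, and so decides how much circulating fat a tissue takes up. Fat cells make it, the endoplasmic reticulum protein LMF1 helps it to fold, and GPIHBP1 on capillary endothelial cells carries it to the vessel lumen. ANGPTL4 inactivates the enzyme in fasted fat, ANGPTL8 is made after feeding, and VLDLR binds the triglyceride-rich particles.

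Raw UMI counts were summed per library within gates set by marker genes, and levels are given as counts scaled to the gate's total (CPM), mean ± SD over 4 libraries a group. The Pdgfra+ gate held 7518 stromal progenitors, with a Pi16 subset of 2855 cells (Pi16 without Icam1, the early, multipotent progenitors) and an Icam1 subset of 2221 cells (Icam1 without Pi16, a gate meant for committed preadipocytes). The Icam1 subset also held markers of F3 progenitors, another stromal population. These 5 genes summed to 844 to 1388 CPM there, 128 to 372 CPM in the Pi16 subset and 623 to 984 CPM in the whole Pdgfra+ gate. The Pecam1+ gate held 7525 endothelial cells and the C1qa+ gate 3915 macrophages. The adipocyte-rich gate held 891 droplets in which Adipoq and Car3 made up at least 1% of UMIs. B cells (1703) and T cells (3001) served as background for all members but Lmf1, which cells of many kinds express.

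The 8 libraries held between 25320800 and 37140950 UMIs, and 36370 of 44427 barcodes passed the limits on depth and mitochondrial share. The median mitochondrial share ran from 1.79% to 2.54% in the Ad-Lib libraries and from 2.80% to 4.24% in the TAN libraries, without overlap. Of 36193 distinct barcodes kept, 174 (0.481%) occurred in more than 1 library. Libraries 1 to 4 stood apart from libraries 5 to 8, each set with 2 Ad-Lib and 2 TAN libraries, in some values of the Pdgfra+ gate: the median mitochondrial share was 1.54% to 1.86% against 1.90% to 2.23%, and Gdf10, a gene of F3 progenitors, stood at 117 to 175 against 247 to 304 CPM. The other F3 progenitor markers overlapped between the sets. F3 itself ran from 142 to 272 CPM in libraries 1 to 4 and from 92.1 to 186 CPM in libraries 5 to 8. The labels name no batch, and a fit with these sets as a term is given where it changed a call. Each marker list holds the genes that set its gate, so the sums in this paragraph leave those genes out for the gates they set. Later sums are of whole lists unless stated. The 4 other endothelial markers summed to 4611 to 5853 CPM in the Pecam1+ gate and to at most 20.4 CPM in the Pdgfra+ gate and its subsets, and the 4 other macrophage markers to 6918 to 8371 CPM in the C1qa+ gate. The adipocyte-rich droplets carried 18110 to 24050 CPM of the 5 adipocyte markers other than Adipoq and Car3 but were shallow, with median depths of 1015 to 1222 UMIs per library, and they also held 298 to 1092 CPM of all 5 endothelial markers. They are therefore called adipocyte-rich droplets and not adipocytes.

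Angptl8 was the member that changed with the regimen. It was 17.6-fold higher under TAN in adipocyte-rich droplets and 21.9-fold higher in the Pecam1+ gate. Lpl, the enzyme, differed by a fitted factor of 1.2 or less in the progenitor gates, the Pecam1+ gate and adipocyte-rich droplets, and so did its anchor Gpihbp1 in the latter pair, which held most of its UMIs. In the C1qa+ gate Lpl had a fitted factor of 1.54. It was not called there with all libraries, but was without Ad-Lib 5 or without the filter on low counts. Angptl4, the fasting inhibitor, averaged 17.3 and 6.85 CPM under Ad-Lib and TAN in the Pi16 subset and 104 and 139 CPM in the Pecam1+ gate. Neither difference was called by edgeR, while the first was called by DESeq2, by edgeR without the filter on low counts and by edgeR with the sets of libraries as a term. The unfiltered fit and the fit with the sets also called more genes across that gate, as given in the closing section. Lmf1 and Vldlr kept similar levels in both groups wherever they were well measured.

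A gene was called when edgeR's quasi-likelihood test gave a Benjamini-Hochberg adjusted p under 0.05 over all genes of the gate together with a 1.5-fold change. In adipocyte-rich droplets 1 of 4 tested members was called, against a background of 6.77% of 1832 genes tested. In the Pecam1+ gate 1 of 6 was called, against 1.79% of 11193 genes. None of 6 was called in the Pdgfra+ gate, where 0.865% of 12018 genes were, and 4 of the 6 had an unadjusted p under 0.05, as did 14% of all genes tested there (9.91% in the Pi16 subset, 12.4% in the Icam1 subset, 13.7% in the C1qa+ gate and 22.4% in T cells). The Pi16 subset gave 0 of 5 (1 at an unadjusted p under 0.05) against 0.337% of 10401 genes, and the Icam1 subset gave 0 of 5 (0 at an unadjusted p under 0.05) against 1.13% of 10416 genes. Of the 3 members tested in the C1qa+ gate, 0 were called and 1 had an unadjusted p under 0.05, against 0.546% of 9886 genes. The background gates gave 0 of 1 in B cells, where edgeR called 0.0% of 6439 genes (120 genes at an unadjusted p under 0.05, and 0 genes with DESeq2), and 0 of 2 in T cells (2 at an unadjusted p under 0.05), where it called 5.43% of 8328 genes. With DESeq2 in place of edgeR the member counts were the same but for the Pi16 subset, where 1 member (Angptl4) was called. Among members tested, the median log2 change was 0.02 in adipocyte-rich droplets, 0.15 in the Pecam1+ gate and 0.18 in the Pdgfra+ gate, beside medians over all genes tested of 0.01, -0.0042 and 0.0073.

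**Figure D1:**
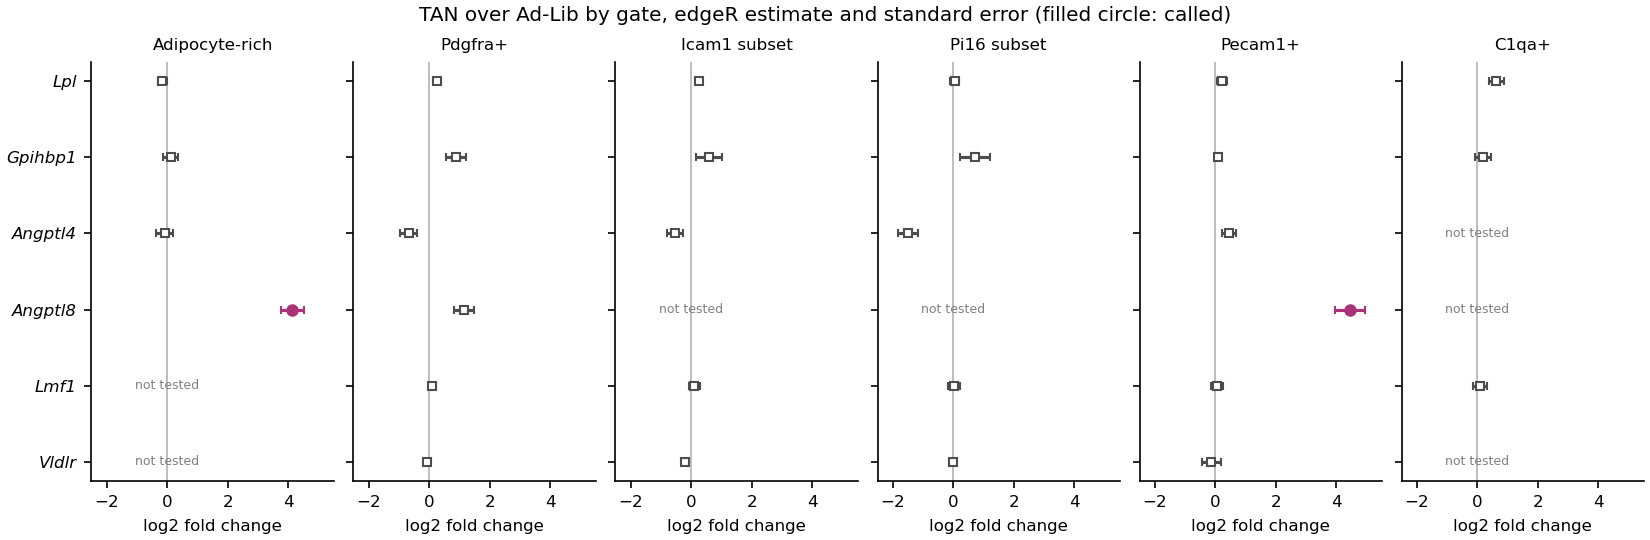
Log2 fold change of TAN over Ad-Lib (x axis) for the 6 genes (y axis) in 6 gates, with edgeR's standard error as the bar. Filled circles mark the called changes, Angptl8 at 4.14 in adipocyte-rich droplets and at 4.45 in the Pecam1+ gate. Open squares were tested and not called, and genes under the filter on low counts are marked as not tested.

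Angptl8 (ENSMUSG00000047822) is a short protein-coding gene on chromosome 9, from 21835510 to 21837347 on the plus strand of GRCm38, and overlaps Dock6, which runs on the other strand. The 250 bases before its start are shown because it is the member that changed. They are RefSeq sequence of GRCm38.p6, plus strand, chr9:21835260-21835509, and the capitals mark a GGGTCA, a variant of the half-site that nuclear receptors bind, which begins 65 bases before the start.
Angptl8: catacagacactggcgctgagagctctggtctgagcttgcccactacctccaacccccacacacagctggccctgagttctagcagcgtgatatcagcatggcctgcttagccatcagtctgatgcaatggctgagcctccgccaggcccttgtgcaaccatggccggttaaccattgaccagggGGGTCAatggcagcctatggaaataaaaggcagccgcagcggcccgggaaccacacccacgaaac
RefSeq promoter entries were at hand for 3 of the 6 genes, Angptl8, Lmf1 and Vldlr. On either strand, GGGTCA was found in 11.6% of 32817 promoter windows of the same length. The related half-site AGGTCA (14% of windows), the E-box CACGTG (6.02%) and TATAAA (12.4%) were in none of the windows of these genes, and CCAAT (33.8%) was in a Vldlr window. GGGTCA and AGGTCA share their last 5 letters, so a stretch can match only one of them. A match describes the sequence only, and no match says only that these letters are not in the window.

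In adipocyte-rich droplets Angptl8 stood at 0, 21.6, 5.01 and 36.5 CPM in Ad-Lib libraries 1, 3, 5 and 7, and at 342, 327, 238 and 267 CPM in TAN libraries 2, 4, 6 and 8. Every TAN library was above every Ad-Lib library by a wide margin. Group means were 15.8 ± 16.6 and 293 ± 49.2 CPM (SD, 4 libraries each). On the log2 scale edgeR put the rise at 4.14 ± 0.38 (SE), with an adjusted p of 1.48e-08. These libraries held only 79792 to 223428 UMIs in the gate, so the Ad-Lib level rests on 9 UMIs against 199 under TAN. The ratio of the pooled levels was 19.6, with an exact 95% interval of 10.1 to 43.5 that covers counting error only. Angptl8 was seen in 109 of 435 droplets under TAN, with up to 10 UMIs in a droplet, and in 9 of 456 droplets under Ad-Lib, never with more than 1 UMI. The share of droplets with a UMI was 24.8% ± 2.48 under TAN and 1.98% ± 2.08 under Ad-Lib as deposited, and after thinning to 2000 UMIs, which left out 366 and 408 droplets, 31.4% ± 8.75 and 1.74% ± 3.48 (exact permutation p = 0.0286, adjusted 0.343 over 36 shares).

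Other transcripts moved in the same droplets. Their mitochondrial share was 3.83% to 4.91% under Ad-Lib and 5.10% to 6.14% under TAN. The 7 adipocyte markers, all detected, summed to 44190 to 46670 CPM under Ad-Lib and to 40220 to 43490 CPM under TAN. Without Adipoq and Car3, which set the gate, the adipocyte sums of the groups overlapped. The 5 stromal markers summed to 2752 to 4061 and 1387 to 2698 CPM, with Pdgfra at 0 in 3 of 8 libraries. The 3 pericyte markers summed to 519 to 889 CPM under Ad-Lib and 224 to 514 CPM under TAN. The stromal and pericyte lists were thus lower under TAN while Angptl8 was higher. The list of 5 Icam1 subset markers, nearly all of it Fabp4, which fat cells also express, was higher under TAN without overlap, at 36900 to 44400 CPM under Ad-Lib and 45220 to 47780 CPM under TAN. The 4 B cell markers ran from 0 to 7.18 CPM under Ad-Lib and from 4.69 to 263 CPM under TAN, the 4 T cell markers from 0 to 5.01 and from 0 to 213 CPM, and both mesothelial markers were at 0. The part of these lists and of the mitochondrial share in the Angptl8 result was not tested. Per 100 UMIs of Adipoq, the fat-cell hormone adiponectin, Angptl8 rose from 0.847 (range 0 to 1.81) to 18.0 (15.5 to 21.5), without overlap. Dock6 stood at 9.75 ± 6.83 CPM under Ad-Lib and 15.9 ± 6.73 CPM under TAN in these droplets, with overlapping libraries. Whether counting used the strand is not given in the sources used here, and without strand the 2 genes' reads in the shared stretch cannot be told apart.

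In the Pecam1+ gate the Ad-Lib libraries 1, 3, 5 and 7 held Angptl8 at 0.367, 0.224, 0.710 and 1.38 CPM and the TAN libraries 2, 4, 6 and 8 at 16.6, 19.8, 5.55 and 10.8 CPM. The groups again did not overlap, although the TAN libraries spread over a wider range. Means of 0.669 ± 0.514 and 13.2 ± 6.32 CPM (SD, 4 libraries each), from 11 and 259 UMIs, gave edgeR a log2 rise of 4.45 ± 0.50 (SE), with an adjusted p of 0.00025. Dock6 stood at 93.8 ± 13.1 and 86.8 ± 11.2 CPM in the same gate. The share of cells with an Angptl8 UMI, thinned to 2000 UMIs, was 0.205% ± 0.191 under Ad-Lib and 2.17% ± 1.21 under TAN (exact permutation p = 0.0286, adjusted 0.343), and unthinned 0.320% and 4.66%. T cells, which should lack the gene, gave thinned shares of 0.018% and 0.101%.

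The Pecam1+ gate also held transcripts of fat cells. Its 7 adipocyte markers, all detected in every library, summed to 1649 to 2369 CPM under Ad-Lib and to 1285 to 2709 CPM under TAN, and its 3 pericyte markers to 814 to 1180 and 480 to 908 CPM. Other values of this gate separated the groups. Its median mitochondrial share was 1.76% to 2.26% under Ad-Lib and 2.60% to 3.33% under TAN. The 5 endothelial markers summed to 6025 to 6627 and 5480 to 5946 CPM, but without Pecam1, which sets the gate, the groups overlapped. These markers moved in both directions. Means of Cldn5 were 2271 CPM under Ad-Lib and 1505 CPM under TAN, and those of Kdr 904.5 and 1116 CPM. The list of 5 Icam1 subset markers was nearly all the fatty acid binding protein gene Fabp4. It summed to 37940 to 44280 CPM under Ad-Lib and 44480 to 54040 CPM under TAN. The 5 Pi16 subset markers summed to 258 to 284 and 356 to 388 CPM. Most of this sum was Anxa3, with means of 219.1 CPM under Ad-Lib and 333.0 CPM under TAN. Pi16 itself averaged 18.54 and 13.99 CPM. Dpp4 and Sema3c also had lower means under TAN, and Cd55 a slightly higher one. The part of these values in the Angptl8 result was not tested. Of 197 TAN cells with an Angptl8 UMI, 85 (43.1%) had Adipoq and 192 (97.5%) had Car3, against 18.9% and 70.7% of all TAN cells of the gate. Angptl8 per 100 Adipoq UMIs was 22.2 (14.3 to 28.0) under TAN and 1.45 (0.334 to 3.29) under Ad-Lib, ranges that overlap those of the adipocyte-rich droplets. For Lpl the same ratio was 2010 in the Pecam1+ gate and 213 in adipocyte-rich droplets under TAN, ranges that do not overlap. When cells with any Adipoq UMI were left out, Angptl8 remained at 0.521 ± 0.341 CPM under Ad-Lib and 8.78 ± 4.32 CPM under TAN (log2 change 4.14, edgeR adjusted p = 0.00066), from 7 and 129 UMIs. Without cells holding Rgs5, a pericyte gene, it stood at 0.625 ± 0.970 and 13.7 ± 7.78 CPM (exact permutation p = 0.0286), from 5 and 140 UMIs, and fell under the filter of the edgeR fit.

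**Figure D2:**
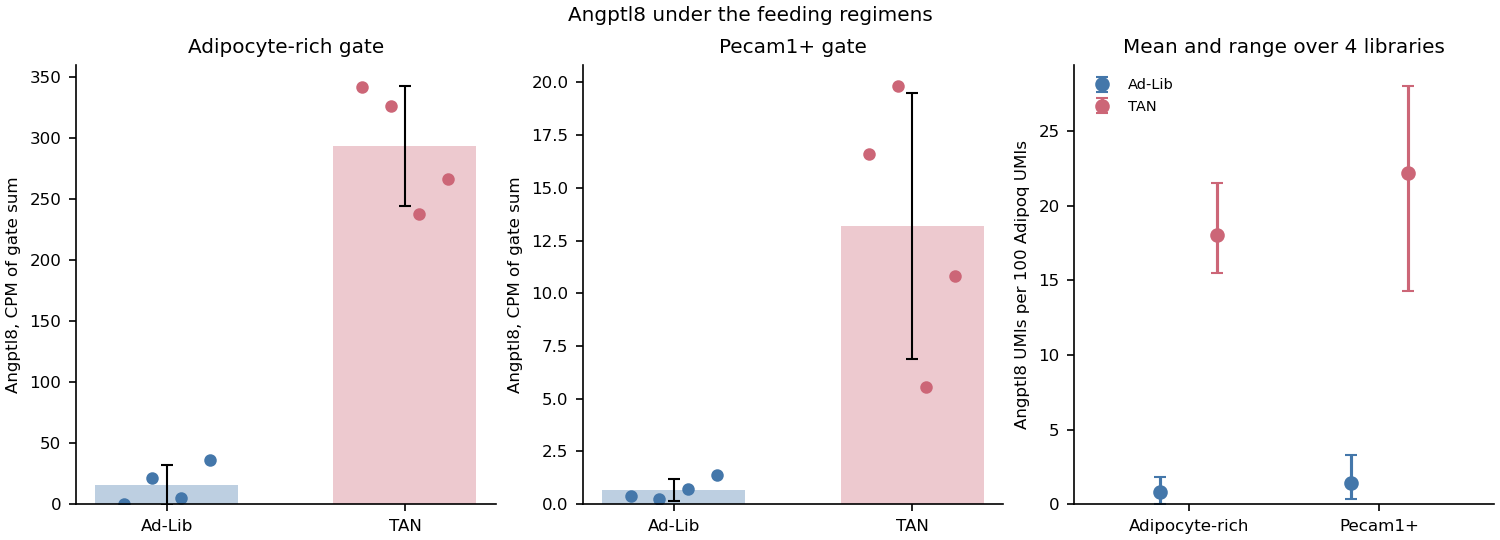
Angptl8 in adipocyte-rich droplets (left) and in the Pecam1+ gate (middle), in CPM of the gate sum, with bars for group means, error bars for the SD of 4 libraries (cut off at 0) and a point for each library, and Angptl8 UMIs per 100 Adipoq UMIs in both gates as mean and range over 4 libraries (right). TAN libraries lie above all Ad-Lib libraries in each panel, and the ratio to Adipoq is of the same size in both gates.

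Elsewhere Angptl8 was rare. In the Pdgfra+ gate it was 0.718, 0.599, 0.467 and 1.13 CPM in the Ad-Lib libraries and 1.34, 1.61, 2.09 and 1.83 CPM in the TAN libraries, again without overlap. The means of 0.728 ± 0.286 and 1.72 ± 0.321 CPM gave a log2 change of 1.15 ± 0.33, which was not called (edgeR adjusted p = 0.105). The counts were 34 and 44 UMIs, with a pooled ratio of 2.26 (exact 95% interval 1.41 to 3.65). Thinned shares were 0.154% and 0.316% of cells (exact permutation p = 0.0571), beside 0.018% and 0.101% of T cells. In the Pi16 subset, the Icam1 subset and the C1qa+ gate the group means stayed under 3 CPM, and the gene was under the filter of the fit. Its level in adipocyte-rich droplets was above that in the Pecam1+ gate in 7 of 8 libraries (exact sign-flip permutation p = 0.0156, adjusted 0.0288), and the steps further down to the Icam1 subset, the Pi16 subset and the C1qa+ gate gave p from 0.0625 to 0.492 by the same exact test. The first of these pools opposite orders: the Pecam1+ gate was above the Icam1 subset in 4 of 4 TAN libraries and in 1 of 4 Ad-Lib libraries. The permutation test over libraries gave p = 0.0286, the smallest that 4 against 4 allows, for Angptl8 in the adipocyte-rich, Pecam1+ and Pdgfra+ gates and for no other of 40 values of members and gates, with an adjusted p of 0.381 at best.

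Lpl (ENSMUSG00000015568, chromosome 8, 68880491 to 68907448, plus strand, GRCm38) was read widely. Its mean level over the 8 libraries was 3532 CPM in adipocyte-rich droplets, 1556 CPM in the Icam1 subset, 922 CPM in the Pecam1+ gate, 232 CPM in the C1qa+ gate and 189 CPM in the Pi16 subset. Each of the first 3 steps down this order held in 8 of 8 libraries (exact sign-flip permutation p = 0.00781, adjusted 0.0156 over 24 steps of all members), and C1qa+ and Pi16 did not differ beyond their spread (5 of 8 libraries, exact sign-flip permutation p = 0.359). The Icam1 subset thus carried several times the Lpl of the Pi16 subset. The difference between both subsets was 2.94 ± 0.29 (SD) in log2(CPM + 1) under Ad-Lib and 3.14 ± 0.50 under TAN. The Icam1 subset, 6.11% of cells kept, held 25.4% of the Lpl UMIs, the Pecam1+ gate 22.7% and the adipocyte-rich droplets 2.97%.

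Thinned to 2000 UMIs, 86.2% ± 1.96 of Icam1 cells under Ad-Lib and 87.7% ± 3.70 under TAN had an Lpl UMI, against 24.0% ± 4.23 and 23.3% ± 2.80 of Pi16 cells. Shares in the Pecam1+ gate were 73.4% ± 4.29 and 73.0% ± 6.48, and in the C1qa+ gate 15.3% ± 3.33 and 21.4% ± 4.76. B cells gave 4.73% and 3.22% and T cells 3.85% and 2.31%, so all of these gates lay above the background. No difference between the regimens passed in any of them (exact permutation p between 0.0857 and 0.914).

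Between the regimens, edgeR called no difference of Lpl in the adipocyte-rich, Pdgfra+ (subsets included) and Pecam1+ gates. In adipocyte-rich droplets it was 3996, 2730, 4255 and 3586 CPM in the Ad-Lib libraries and 2957, 2788, 3685 and 4259 CPM in the TAN libraries. The groups overlapped throughout, and edgeR put the log2 difference at -0.17 ± 0.15 (SE), adjusted p = 0.559. In the Icam1 subset the Ad-Lib libraries read 1362, 1353, 1572 and 1348 CPM and the TAN libraries 1989, 1339, 2016 and 1473 CPM. TAN libraries 2 and 6 were above all Ad-Lib libraries and the other two were not, and the log2 change was 0.24 ± 0.12 (edgeR adjusted p = 0.439). The whole Pdgfra+ gate gave 914 ± 133 and 1110 ± 204 CPM (log2 0.26 ± 0.12, adjusted p = 0.347 in edgeR), the Pi16 subset 185 ± 40.2 and 193 ± 45.5 CPM (0.05 ± 0.14, adjusted p = 0.966 in edgeR), and the Pecam1+ gate 862 ± 188 and 982 ± 303 CPM (0.22 ± 0.17, adjusted p = 0.566 in edgeR). Ad-Lib 5 was the highest Ad-Lib library and TAN 6 the highest TAN library in the Pdgfra+, Icam1 and Pecam1+ gates alike.

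In the C1qa+ gate Lpl was 116, 120, 356 and 150 CPM under Ad-Lib and 239, 340, 275 and 258 CPM under TAN. Only Ad-Lib 5 reached the TAN libraries, and it exceeded all of them. The log2 change was 0.63 ± 0.25 (edgeR adjusted p = 0.256), and without Ad-Lib 5 it was 1.11 and called (edgeR adjusted p = 0.000369). Without the filter on low counts it was 0.63 and called even with all libraries (edgeR adjusted p = 2.33e-05). The 7 adipocyte markers in this gate summed to 165 to 232 CPM under Ad-Lib and 152 to 406 CPM under TAN, and their part in the difference was not tested. Lpl in B cells was 22.5 ± 18.3 and 37.1 ± 29.0 CPM and in T cells 64.2 ± 40.6 and 27.4 ± 16.3 CPM, with no call in either.

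**Figure D3:**
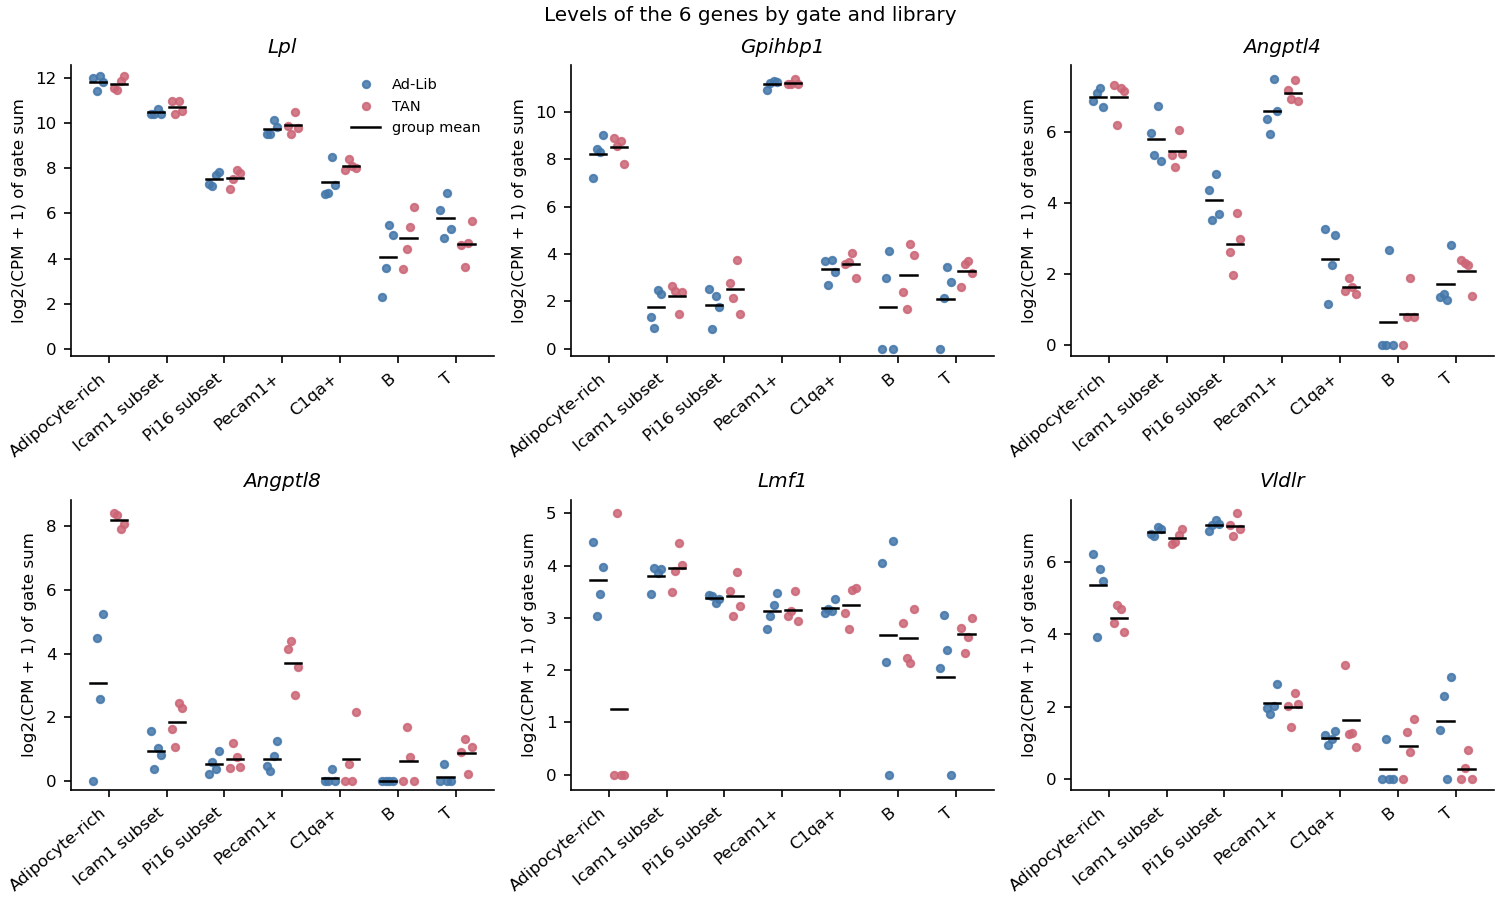
Levels of the 6 genes as log2(CPM + 1) of the gate sum (y axis) in 7 gates (x axis), with 1 point per library, Ad-Lib in blue and TAN in red, and a black line at the mean of the plotted values. Lpl is highest in adipocyte-rich droplets, lower in the Icam1 subset and the Pecam1+ gate, and lowest in B and T cells. Gpihbp1 peaks in the Pecam1+ gate, Vldlr is high in both progenitor subsets and Lmf1 is low in every gate. Angptl8 separates the groups in adipocyte-rich droplets and the Pecam1+ gate.

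Gpihbp1 (ENSMUSG00000022579, chromosome 15, 75596628 to 75599481, plus strand), which moves LPL across the capillary wall, was an endothelial transcript. The Pecam1+ gate, 20.7% of cells, held 80.1% of its UMIs, at 2351 CPM over the 8 libraries. Adipocyte-rich droplets followed with 351 CPM, the C1qa+ gate with 10.5 CPM, the Pi16 subset with 4.36 CPM and the Icam1 subset with 3.36 CPM. The first 3 steps held in 8 of 8 libraries (exact sign-flip permutation p = 0.00781, adjusted 0.0156), and both progenitor subsets did not differ beyond their spread (3 of 8 libraries, exact sign-flip permutation p = 0.672). The C1qa+ gate and the subsets were near the level of B cells (5.80 and 10.4 CPM under Ad-Lib and TAN) and T cells (4.85 and 9.03 CPM).

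In the Pecam1+ gate Gpihbp1 was 1954, 2333, 2499 and 2464 CPM under Ad-Lib and 2306, 2284, 2679 and 2290 CPM under TAN. Group ranges overlapped, and the means of 2313 ± 249.4 and 2390 ± 193 CPM differed by 0.08 ± 0.09 on the log2 scale (SE), with an edgeR adjusted p of 0.716. Nearly every endothelial cell held it, with thinned shares of 92.4% ± 1.25 and 94.1% ± 1.54 (exact permutation p = 0.143), against 1.24% and 1.09% of T cells. In adipocyte-rich droplets the level was 328 ± 150 CPM under Ad-Lib and 375 ± 111 CPM under TAN (log2 0.12 ± 0.24, edgeR adjusted p = 0.835), in droplets that also held Pecam1 at 101 and 121 CPM. The thinned share of these droplets with Gpihbp1 ran against the level, 45.5% ± 3.35 under Ad-Lib and 33.9% ± 4.18 under TAN (exact permutation p = 0.0286, adjusted 0.343), with 408 and 366 droplets left out as too shallow, and unthinned it was 18.2% and 16.9%. The larger log2 values of the progenitor gates, 0.60 to 0.90, came from levels of 2.75 to 6.42 CPM and were not called.

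Angptl4 (ENSMUSG00000002289, chromosome 17, 33773750 to 33781830, minus strand), the inhibitor known to rise in fat during fasting, was highest in adipocyte-rich droplets (128 CPM over the 8 libraries) and the Pecam1+ gate (122 CPM), which did not differ beyond their spread (5 of 8 libraries, exact sign-flip permutation p = 0.57). The Icam1 subset followed with 52.5 CPM, the Pi16 subset with 12.1 CPM and the C1qa+ gate with 3.71 CPM, each below the one before in 8 of 8 libraries (exact sign-flip permutation p = 0.00781, adjusted 0.0156). The Pecam1+ gate held 46.9% of its UMIs.

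In the Pi16 subset Angptl4 was 19.8, 10.4, 27.0 and 12 CPM in the Ad-Lib libraries and 5.23, 2.96, 12.3 and 6.98 CPM in the TAN libraries. Only TAN 6 reached into the Ad-Lib range. The means of 17.3 ± 7.64 and 6.85 ± 3.96 CPM, from 299 and 62 UMIs, put the log2 difference at -1.48 ± 0.33 (SE), which edgeR did not call (adjusted p = 0.0661), while DESeq2 called it (-1.41, adjusted p = 0.0249). Without the filter on low counts edgeR called it too (-1.48, adjusted p = 9.93e-07 in edgeR). With libraries 1 to 4 and 5 to 8 as a term, it was -1.49 and called (edgeR adjusted p = 0.0357). These edgeR settings also called more genes across the whole gate, as given in the closing section. Leaving out single libraries moved the edgeR adjusted p between 0.0175 and 0.254, and the change was called without Ad-Lib 3 (adjusted p = 0.0404 in edgeR), TAN 6 (0.0175) or Ad-Lib 7 (0.0447). The thinned share of Pi16 cells with a UMI was 3.37% ± 1.39 and 1.38% ± 1.03 (exact permutation p = 0.0857, adjusted 0.441), and unthinned 13.3% and 5.02% (exact permutation p = 0.0286), beside thinned shares in T cells of 0.612% and 0.766%.

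The Icam1 subset gave 60.6 ± 32.3 and 44.4 ± 14.5 CPM (log2 -0.53 ± 0.27, edgeR adjusted p = 0.451) and the whole Pdgfra+ gate 43.2 ± 20.9 and 28.6 ± 11.8 CPM (-0.67 ± 0.28, edgeR adjusted p = 0.294). The Pecam1+ gate ran the other way, with 80.9, 60.8, 180 and 95.2 CPM under Ad-Lib and 143, 120, 176 and 116 CPM under TAN. All TAN libraries were above 3 of the Ad-Lib libraries, and Ad-Lib 5 was above them all. The log2 change of 0.45 ± 0.24 was not called (edgeR adjusted p = 0.347), and without Ad-Lib 5 it was 0.84 and called (edgeR adjusted p = 0.00517). Adipocyte-rich droplets overlapped throughout, at 126 ± 21.4 and 131 ± 40.0 CPM (-0.08 ± 0.27, edgeR adjusted p = 0.915). In the C1qa+ gate Angptl4 was 8.68, 1.22, 3.76 and 7.52 CPM under Ad-Lib and 1.88, 2.73, 2.13 and 1.74 CPM under TAN, from 88 and 18 UMIs. Ad-Lib 3 was below all TAN libraries and the others above them. The gene was under the filter there, and without the filter its log2 change was -1.35 and called (edgeR adjusted p = 0.0428).

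The difference of the feeding effect between gates was tested on each library's own difference in log2(CPM + 1). Within the stroma, the effect on Angptl4 was -0.35 in the Icam1 subset and -1.26 in the Pi16 subset, a difference of 0.91 (exact permutation p = 0.0286, adjusted 0.1 over 7 such tests). Icam1 cells stood above Pi16 cells by 1.71 ± 0.21 (SD, n = 4) under Ad-Lib and by 2.62 ± 0.33 under TAN, without overlap. Between the Pdgfra+ and Pecam1+ gates, effects of -0.54 and 0.51 differed by -1.05 (exact permutation p = 0.0286, adjusted 0.1). For Lpl, Lmf1 and Vldlr the corresponding differences lay between -0.15 and 0.20 (exact permutation p from 0.371 to 0.629). With 4 libraries a group no permutation p can go below 0.0286. Both Angptl4 differences stood at this lowest p and the other tests above it, and neither passed the adjustment.

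**Figure D4:**
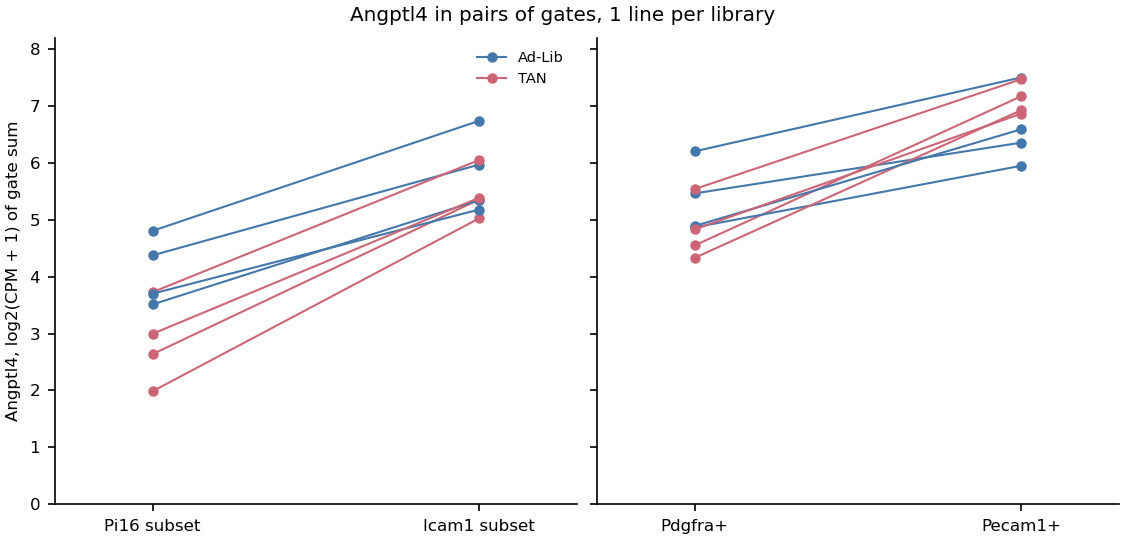
Angptl4 as log2(CPM + 1) of the gate sum (y axis) in the Pi16 and Icam1 subsets (left) and in the Pdgfra+ and Pecam1+ gates (right), with 1 line per library, Ad-Lib in blue and TAN in red. TAN lines rise more steeply in both panels, by a mean of 2.62 against 1.71 on the left.

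Lmf1 (ENSMUSG00000002279, chromosome 17, 25579085 to 25662826, plus strand), the chaperone that LPL needs to fold, was low. It stood at 14 CPM in the Icam1 subset, 10.5 CPM in adipocyte-rich droplets, 9.63 CPM in the Pi16 subset, 8.45 CPM in the C1qa+ gate and 7.98 CPM in the Pecam1+ gate, and no neighbours in this order differed beyond their spread (exact sign-flip permutation p from 0.109 to 0.531). Among gates further apart, set side by side after their values were seen and so without a test, the Icam1 subset was above the Pecam1+ gate in 8 of 8 libraries and above the Pi16 subset in 7 of 8. B cells (10.1 and 5.39 CPM under Ad-Lib and TAN) and T cells (3.66 and 5.54 CPM) held it too. Its log2 change was between 0.01 and 0.11 in the 5 gates where it was tested, and none was called (edgeR adjusted p of at least 0.769). In adipocyte-rich droplets it rested on 7 UMIs a group and was under the filter.

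Vldlr (ENSMUSG00000024924, chromosome 19, 27216484 to 27254231, plus strand), a receptor for triglyceride-rich lipoproteins, was a stromal transcript. The Pi16 subset held it at 129 CPM and the Icam1 subset at 107 CPM, the former above the latter in 8 of 8 libraries by 0.26 ± 0.22 (SD) in log2(CPM + 1) (exact sign-flip permutation p = 0.00781, adjusted 0.0156). Adipocyte-rich droplets followed with 34.1 CPM, and the Pecam1+ gate (3.25 CPM) and the C1qa+ gate (2.06 CPM) did not differ beyond their spread (7 of 8 libraries, exact sign-flip permutation p = 0.0781). So Vldlr ran against Lpl within the stroma, where Lpl was the higher in Icam1 cells. Between the regimens it was 129 ± 11 and 129 ± 25.1 CPM in the Pi16 subset (log2 -0.02 ± 0.11, edgeR adjusted p = 0.989) and 113 ± 8.88 and 101 ± 13.6 CPM in the Icam1 subset (-0.19 ± 0.09, edgeR adjusted p = 0.415). In the whole Pdgfra+ gate it stood at 102 to 112 CPM in libraries 1 to 4 and at 119 to 139 CPM in libraries 5 to 8, and its log2 change was -0.08 both without and with these sets as a term (edgeR adjusted p = 0.744 and 0.631). In adipocyte-rich droplets it was 73.2, 14.4, 55.1 and 43.8 CPM under Ad-Lib and 18.7, 26.9, 25.1 and 15.7 CPM under TAN, from 26 and 14 UMIs, too few for the fit.

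A further 30 genes of LPL handling were listed by role: folding, secretion and surface binding, cleavage, inhibition, apolipoproteins, related lipases, lipoprotein receptors and transcription regulators. In the Pdgfra+ gate 1 of 22 tested was called higher and 0 lower, in the Icam1 subset 1 of 20 higher and 0 lower, and in adipocyte-rich droplets 0 of 9 higher and 1 lower, beside the 0.865%, 1.13% and 6.77% of all genes called there. At an unadjusted p under 0.05 in edgeR, the counts in these gates were 5 of 22, 4 of 20 and 4 of 9, beside 14%, 12.4% and 21.1% of all genes tested. The edgeR fit called 0 of 16 in the Pi16 subset (1 at an unadjusted p under 0.05, and 1, Apoe, with DESeq2), 0 of 20 in the Pecam1+ gate (2 at an unadjusted p under 0.05, and 0 with DESeq2), 0 of 19 in the C1qa+ gate (0 and 0) and 0 of 9 in B cells (0 and 0). Over all genes tested, the shares at an unadjusted p under 0.05 were 9.91% (Pi16 subset), 17.7% (Pecam1+), 13.7% (C1qa+) and 1.86% (B cells). In T cells 2 of 12 were lower and 0 higher, beside 5.43% of all genes. There 6 had an unadjusted p under 0.05 in edgeR, beside 22.4% of all genes. The median log2 change of the list ran from -0.295 in T cells to -0.03 in the Pecam1+ gate, beside medians over all genes tested between -0.0042 and 0.012.

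Apoe, the apolipoprotein through which particles bind their receptors, was called higher in the Icam1 subset and lower in adipocyte-rich droplets. In the Icam1 subset it was 616 ± 67.8 CPM under Ad-Lib and 964 ± 142 CPM under TAN (log2 0.61 ± 0.12, edgeR adjusted p = 0.0106), and every TAN library, from 812 to 1135 CPM, was above every Ad-Lib library, from 547 to 691 CPM. The call was lost without TAN 2, Ad-Lib 5 or TAN 6. In the Pi16 subset it was 97.3, 117, 187 and 228 CPM in the Ad-Lib libraries and 90.4, 94.8, 79.0 and 105 CPM in the TAN libraries. The groups overlapped there, with TAN 8 above Ad-Lib 1. The log2 difference of -0.75 ± 0.18 was not called by edgeR (adjusted p = 0.0945), but DESeq2 called it, as did edgeR with libraries 1 to 4 and 5 to 8 as a term (-0.69, edgeR adjusted p = 0.0445). The 5 macrophage markers ran from 10.9 to 21.9 CPM under Ad-Lib and from 7.61 to 15.7 CPM under TAN in the Pi16 subset, a mean of 14.8 against 9.96 CPM, and from 3.09 to 15.0 and from 9.06 to 15.6 CPM in the Icam1 subset. Apoe in the C1qa+ gate stood at 9783 ± 801 and 9222 ± 1041 CPM, and the part of macrophage transcripts in these values was not tested. In adipocyte-rich droplets it fell from 3320 ± 334 to 2208 ± 95.2 CPM (log2 -0.66 ± 0.12, edgeR adjusted p = 0.000668), again without overlap, in the gate where the stromal and pericyte lists were also lower and the 5 macrophage markers summed to 137 to 270 CPM under Ad-Lib and 71.6 to 180 CPM under TAN. The part of these lists in the fall was not tested. Mlxipl, which encodes the carbohydrate-responsive regulator ChREBP, rose in the Pdgfra+ gate from 1.53 ± 0.124 to 3.52 ± 0.826 CPM (log2 1.13 ± 0.23, edgeR adjusted p = 0.0338), a call that was lost without any 1 library other than TAN 8. The 4 capillary endothelial markers of that gate summed to 29.0 to 45.1 CPM under Ad-Lib and 48.4 to 53.5 CPM under TAN, while its 5 endothelial markers overlapped between the groups. The part of these lists in the rise was not tested. Sdc4, a surface proteoglycan, and Lrp1, a remnant receptor, fell in T cells, from 42.0 ± 13.6 to 8.83 ± 2.92 CPM (log2 -2.03, edgeR adjusted p = 0.00746) and from 27.3 ± 9.41 to 7.87 ± 3.53 CPM (-1.66, edgeR adjusted p = 0.0136). In the same T cell gate the 5 stromal markers summed to 216 to 997 CPM under Ad-Lib and 67.9 to 232 CPM under TAN, and the 5 macrophage markers to 28.9 to 134 and 8.48 to 25.3 CPM. Their part in both values was not tested, and without Ad-Lib 1 only 1 gene of the list was called in T cells.

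Genes whose level followed a member most closely were sought over 40 points, 5 gates in 8 libraries, among 8712 genes with a mean of at least 10 CPM. The points of a library share its depth, so the correlations of log2(CPM + 1) are descriptions. Angptl8 was closest to Acly (r = 0.913), Gapdh (0.91) and Slc25a1 (0.899), 2 of which serve lipid synthesis, ATP citrate lyase and the mitochondrial citrate carrier, and 1 glycolysis. Gpihbp1 was closest to the endothelial genes Ptprb (0.994), Egfl7 (0.992) and Flt1 (0.992). Lpl was closest to Ephx2 (0.953), Fah (0.947) and Cox8b (0.941), and Vldlr was close to Htra3 (0.958) and Dpt (0.958). Angptl4 was closest to Cav1 (0.937), Nudt4 (0.918) and Dab2ip (0.914), and Lmf1, at levels of only about 10 CPM, to Cenpc1 (0.911), Ccdc66 (0.872) and B3galnt2 (0.846).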

How the data were processed

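Filtered 10x Genomics 3′ matrices of 8 libraries (4 Ad-Lib, 4 TAN) were deposited as raw UMI counts per gene and barcode. The authors made them with Cell Ranger (3.0.2 in the submitters' processing notes, 6.0.1 in the file headers) on GRCm38/mm10, and used Seurat. Their annotation is not given in the sources used here, and coordinates come from a GENCODE annotation of GRCm38. Cells with 700 to 30000 UMIs, 200 to 8000 genes and at most 10% mitochondrial UMIs were kept, the limits in the study's methods. No doublet caller was run. The gates other than the adipocyte-rich one required 0 UMIs of the stromal, endothelial, macrophage and lymphocyte markers that defined the other gates, but allowed Adipoq under its limit and Rgs5, and the adipocyte-rich gate set no such condition, so doublets may remain there. Gates used raw UMIs: Adipoq and Car3 each present and together at least 1% (adipocyte-rich, taken first), Pdgfra, Pecam1, Cd79a (2 UMIs), C1qa (2 UMIs) or the Cd3 genes (2 UMIs). Sums per library were tested with edgeR 4.0.16 (TMM, filterByExpr, quasi-likelihood, Benjamini-Hochberg over all genes of a gate, R 4.3.3), with at least 10 cells per library and gate. The study tested cells by a Wilcoxon test, whereas here the library was the replicate. Exact two-sided permutation tests over the 70 assignments of 8 libraries, and sign flips over libraries, were run in Python 3.11.15. A fold from edgeR is a fitted value. The smallest count that bounds a level was taken as 3 UMIs, which is 13.4 to 37.6 CPM per library in adipocyte-rich droplets and 0.441 to 0.979 CPM in the Pecam1+ gate. Scripts were tested on simulated data. Shares of cells were given after thinning to 2000 UMIs. Alternatives were DESeq2 1.42.0, no filter, other gates and limits, and leaving out each library. Leaving out cells with Rgs5, and a term for libraries 1 to 4 against 5 to 8, were chosen after seeing the data. Values were named for the 6 members in every gate, for called genes of a list of 30 and for the 3 genes most like each member, 1 of which is not reported here. The members and lists were chosen with earlier results of these data known.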

Additional observations from a re-analysis of the deposited data

Results flagged for a closer look

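In groups of 4 libraries, a library was singled out when its distance to the nearest other library relative to the group's range exceeded Dixon's 95% limit for 4 values. Of 66 groups of members and gates examined, 4 were singled out this way, and chance flags about 1 in 20. Ad-Lib 5 held Lpl at 1572 CPM in the Icam1 subset, where the next library held 1362 CPM. Ad-Lib 5 also held Lpl at 356 CPM in the C1qa+ gate, next to 150 CPM. TAN 6 held Gpihbp1 at 2679 CPM in the Pecam1+ gate, next to 2306 CPM. TAN 2 held Vldlr at 7.91 CPM in the C1qa+ gate, next to 1.42 CPM. Without Ad-Lib 5, Lpl in the C1qa+ gate was called, at a log2 change of 1.11 (edgeR adjusted p = 0.000369, against 0.256 with all libraries).

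The feeding effect on Angptl4 differed between gates by the exact permutation test in both pairs examined, by 0.91 on the log2 scale for the Icam1 subset minus the Pi16 subset and by -1.05 for the Pdgfra+ gate minus the Pecam1+ gate. Each had p = 0.0286, the smallest possible by permutation, and an adjusted p of 0.1 over 7 tests.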

How the results depend on the processing

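Angptl8 kept its direction and call in adipocyte-rich droplets and the Pecam1+ gate under every alternative that gave a value, several of which leave the adipocyte-rich gate as it is, and without each library (log2 changes of 3.71 to 4.85 and of 4.20 to 4.96 without a library). Without cells holding Rgs5 the Pecam1+ gate gave no edgeR value for it, since it fell under the filter. Its permutation p in that gate was 0.0571 without any 1 Ad-Lib library, with CPM differences of 10.3 to 15.1, and in the Pdgfra+ gate the same p without TAN 6, with differences of 0.863 to 1.12. No paired analysis was possible because the groups share no replicate number. The counts of genes called moved more than 1.5 times without the filter on low counts, to 189 (Pdgfra+), 157 (Pi16), 269 (Icam1), 363 (Pecam1+), 203 (C1qa+), 11 (B) and 1007 (T), from 104, 35, 118, 200, 54, 0 and 452. They were 59 in the multi-marker Pdgfra+ gate, 17 in the Pi16 subset with 1 UMI more of each marker, 68 with DESeq2 in adipocyte-rich droplets and 174 in T cells with a reduced maximum of UMIs per cell. With libraries 1 to 4 and 5 to 8 as a term, chosen after seeing the data, they were 68 in the Pi16 subset, where Angptl4 was then called, and moved by less than 1.5 times in the other gates. Without single libraries they ran from 28 to 141 (Pdgfra+, lowest without TAN 2, and 61, 35 and 64 without Ad-Lib 3, TAN 4 and TAN 8), 1 to 77 (Pi16, without TAN 2 and TAN 6, and 2 and 18 without TAN 4 and TAN 8), 66 to 142 (Icam1, lowest without TAN 2), 128 to 284 (Pecam1+, lowest without TAN 2), 21 to 61 (C1qa+, lowest without TAN 2, and 22, 34, 27 and 25 without Ad-Lib 1, Ad-Lib 3, TAN 4 and Ad-Lib 7), 79 to 144 (adipocyte-rich, lowest without Ad-Lib 5) and 76 to 1141 (T, without TAN 4 and Ad-Lib 3, and every other library moved it over 1.5 times too). Of the pathway list, 0 to 1 genes were called in the Pdgfra+ gate (0 without any library but TAN 8), 0 to 1 in the Pi16 subset (1 without Ad-Lib 1, and 1, Apoe, with DESeq2 and with the sets of libraries as a term), 0 to 1 in the Icam1 subset (0 without TAN 2, Ad-Lib 5 or TAN 6), 1 to 2 in adipocyte-rich droplets (2 without TAN 8) and 1 to 5 in T cells (without Ad-Lib 1 and Ad-Lib 3).

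Several changes that were not called in the main fit turned sign. Lmf1 was -0.025 in the Pi16 subset without cells holding Rgs5, -0.064 in the Pecam1+ gate without cells holding Adipoq and -0.010 in the multi-marker C1qa+ gate. Vldlr in the Pecam1+ gate was 0.0019 in the multi-marker gate and 0.071 without cells holding Adipoq. In adipocyte-rich droplets at 0.5%, Lpl was 0.0063 and Gpihbp1 -0.25, and Gpihbp1 was -0.031 with a mitochondrial limit of 20%. Lpl in T cells, -1.08 and not called with all libraries, was called at -1.02 without the filter and at -1.42 without Ad-Lib 3, and was 0.54 in the multi-marker gate. The share of cells with Lpl differed by -0.67 percentage points in the Icam1 subset unthinned and by 2.07 in the Pecam1+ gate thinned to 1000 UMIs. Without single libraries, log2 changes ran from -0.052 to 0.18 (Lpl, Pi16), -0.10 to 0.12 (Lmf1, Pi16), -0.12 to 0.063 (Vldlr, Pi16), -0.0017 to 0.24 (Lmf1, Icam1), -0.065 to 0.17 (Lmf1, Pecam1+), -0.27 to 0.092 (Vldlr, Pecam1+), -0.024 to 0.21 (Lmf1, C1qa+), -0.053 to 0.37 (Gpihbp1, adipocyte-rich) and -0.29 to 0.20 (Angptl4, adipocyte-rich). Differences of effect between subsets ran from -0.042 to 0.33 for Lpl and from -0.018 to 0.31 for Lmf1, and for Angptl4 between the Pdgfra+ and Pecam1+ gates from -1.20 to -0.94, with a permutation p of 0.0571 without TAN 2 or TAN 4. The cause of these shifts was not tested.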
